A study of Rattus norvegicus with 4 samples.

Results

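The Ensembl annotated long noncoding RNA (lncRNA) transcripts of rat cortical astrocytes were taken as the rows of the deposited lncRNA tables whose identifier begins with ENSRNOT, the prefix of rat transcripts in Ensembl. Rows of small structural RNAs, of Tug1 and of clone AC134224 were left out, which removed 11 of 1181 such rows. The remaining 1170 transcripts, of 20524 rows in all, are described here across control astrocytes and astrocytes after oxygen-glucose deprivation (OGD). The other rows carry NONCODE identifiers (16906 rows, from a database of noncoding RNAs) or StringTie identifiers (2437 rows, transcripts assembled from reads).

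Primary astrocytes, taken from neonatal Wistar rat cortex, were kept on coverslips above cortical neurons, with paraffin dots holding the layers apart, so that both cell types shared a medium. Control co-cultures are labelled untreated. Treated co-cultures spent 45 min in glucose-free medium at 1% oxygen and then 24 h in normal medium with normal oxygen, a sublethal challenge that the series calls ischemic preconditioning. Each group had 2 libraries of total RNA, named here control 1, control 2, OGD 1 and OGD 2, and the RNA was taken from the astrocyte coverslips. Nothing in the labels ties the libraries of a group to separate cultures, and p-values therefore measure library-to-library spread that could be purely technical.

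LncRNAs are transcripts longer than the small RNAs that code for no known protein. Many are spliced and carry poly(A) tails like messenger RNAs, are made at low levels, and are found in few cell types. Some act on chromatin near their own gene, some bind proteins or microRNAs, and for most annotated loci no role is known. Ensembl builds its rat lncRNA models from cDNA and RNA-seq evidence, and names a gene after the genome contig or clone it lies on where no gene symbol exists.

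Of the 1032 Ensembl gene names among the transcripts, 43 matched an entry in RefSeq (assembly GRCr8), 33 of them annotated as lncRNA. RefSeq start-site windows, which run from 250 bases before to 50 bases after the first listed start, were at hand for 29 of those 33. The windows of 3 loci are printed because their transcripts were abundant enough to be tested and no other RefSeq gene overlaps the window; they were chosen after their values were seen. Capitals mark ACGTG or GCGTG on either strand (CACGT or CACGC when read on the printed strand), the core letters of the hypoxia response element bound by hypoxia-inducible factors. Kantr lies at chrX:24909987-24910286 (minus strand), LOC102549726 at chr20:3880958-3881257 (plus strand) and LOC102549869 at chrX:30873680-30873979 (minus strand), each in GRCr8 and read 5′ to 3′ on the gene's strand.
Kantr: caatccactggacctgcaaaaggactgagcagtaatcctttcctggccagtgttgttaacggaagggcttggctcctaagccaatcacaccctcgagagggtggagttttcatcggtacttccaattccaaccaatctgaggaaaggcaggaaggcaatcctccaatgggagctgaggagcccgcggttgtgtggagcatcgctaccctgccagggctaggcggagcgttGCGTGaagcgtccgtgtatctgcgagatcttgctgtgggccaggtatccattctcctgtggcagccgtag
LOC102549726: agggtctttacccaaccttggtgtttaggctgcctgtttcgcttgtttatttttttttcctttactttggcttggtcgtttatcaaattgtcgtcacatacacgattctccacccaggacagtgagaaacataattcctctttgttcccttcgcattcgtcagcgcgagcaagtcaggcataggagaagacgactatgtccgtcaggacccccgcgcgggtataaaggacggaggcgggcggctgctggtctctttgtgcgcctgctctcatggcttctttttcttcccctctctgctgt
LOC102549869: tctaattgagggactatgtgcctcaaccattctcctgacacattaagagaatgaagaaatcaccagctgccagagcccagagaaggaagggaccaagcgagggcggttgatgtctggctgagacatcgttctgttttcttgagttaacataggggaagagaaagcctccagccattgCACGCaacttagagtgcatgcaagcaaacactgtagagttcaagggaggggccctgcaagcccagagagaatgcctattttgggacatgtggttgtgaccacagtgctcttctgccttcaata
The Kantr window held 1 match, GCGTG, the LOC102549869 window held 1, CACGC, and the LOC102549726 window held 0. Over the 29 windows, GCGTG or its reverse complement occurred in 13 (44.8%), against 31.1% of 27457 RefSeq windows and 20.5% of 8452 lncRNA windows. ACGTG or its reverse complement occurred in 7 of 29 (24.1%), against 19.7% of all windows and 18.1% of lncRNA windows. The letters CACGTG hold ACGTG on both strands and were counted once per window. The median GC content of the 29 windows was 52.0%, with 47.7% for lncRNA windows and 52.3% for all windows. A match is a run of letters and not a binding site.

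The 3 printed loci gave low to moderate counts. Kantr, a lncRNA gene on the X chromosome that lies near a row named for Tspyl2, had transcript ENSRNOT00000086786 (413 nt) at 33 and 41 counts in controls and 34 and 28 after OGD. Its second transcript, ENSRNOT00000082634 (387 nt), had 18 and 17 counts in controls and 10 and 11 after OGD. The groups overlapped for the longer Kantr transcript and did not overlap for the shorter, whose edgeR adjusted p was 1.00. The most abundant LOC102549726 transcript, ENSRNOT00000087471, had 181, 244, 169 and 329 counts (control 1, control 2, OGD 1, OGD 2, the order used throughout). LOC102549869 had 20, 12, 4 and 16 counts. For both of these the groups overlapped.

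Among the 29 matched lncRNA genes with a window, 8 (27.6%) had another RefSeq gene starting within 1000 bases on the opposite strand, and for 7 of these the partner codes for a protein. The share over 8452 RefSeq lncRNA genes was 10.9%. LOC102553018 begins 32 bases from Ccn1, which encodes a secreted matrix-associated protein, and its transcript had 382 and 562 counts in controls and 301 and 463 after OGD. LOC102548225 begins 81 bases from Ctif, a factor of cap-dependent translation, and had 200, 220, 203 and 229 counts. LOC100910237 begins 186 bases from Rps12, a protein of the small ribosomal subunit, and had 20, 35, 21 and 16 counts. The groups overlapped for these 3 transcripts.

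Few of the loci had a gene symbol. Names of whole-genome shotgun contigs (AABR07) were carried by 910 transcripts, LOC numbers by 130, clone accessions by 112, gene symbols by 14 and RGD numbers by 4. The LOC transcripts were tested for change more often (49.2%) than contig-named transcripts (25.9%), and their median level was 0.209 against 0.110 FPKM (a level scaled for transcript length and library size). Most genes had a single listed transcript (929 of 1032), while 103 genes held the other 241 transcripts.

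The Ensembl transcripts were longer than NONCODE rows and nearly all spliced. Their median length was 796 nt (quartiles 494 and 1401), against 647 nt for NONCODE and 1667 nt for StringTie rows. A genomic span longer than the transcript, the sign of splicing used here, was found for 1111 of 1170, against 46.3% of NONCODE and 100% of StringTie rows. Spliced Ensembl transcripts spanned a median of 5172 bases, and the widest spanned 298200 bases. At the short end, 29 transcripts were below 200 nt, a length that neither other class contained. The shortest NONCODE and StringTie rows both had 201 nt, and whether those classes were cut by length was not tested.

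The 3 longest transcripts differed widely in counts. AABR07015846.1 (6628 nt) had 3, 0, 4 and 0 counts, while the AABR07028908.2 transcripts had 170, 90, 24 and 89 (6316 nt) and 19, 12, 133 and 70 (6183 nt). The 3 shortest had 3 counts or fewer in each library. AABR07046738.3 (96 nt) had 0, 0, 1 and 0. AABR07058021.1 (107 nt) had 1, 0, 0 and 0 counts and AABR07053849.2 (118 nt) had 3, 1, 2 and 0. By position, the X chromosome held 63 transcripts, 5.38% of the Ensembl set against 2.79% of all rows. These are shares of annotation and not of expression.

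Detection was lower among Ensembl transcripts than among the other classes in each of the 4 libraries. At least 1 count was found for 68.3% and 63.2% of the 1170 in controls and for 67.1% and 63.3% after OGD. The NONCODE share was 86.8% to 89.4% and the StringTie share 89.8% to 92.0%. StringTie rows were assembled from reads, so where those reads came from these libraries a high share is built into that class. Averaged over libraries, the Ensembl share minus the NONCODE share was -22.7 percentage points (65.5% ± 2.59 against 88.2% ± 1.24, SD, n = 4 libraries; two-sided exact sign-flip permutation p = 0.125, the smallest that 4 libraries allow, and 0.125 after adjustment over 6 class comparisons). Among spliced rows alone, with median lengths of 807 nt (Ensembl) and 591 nt (NONCODE), the shares were 64.6% and 85.8%. The difference was widest among short transcripts: below 400 nt, 41.8% to 53.3% of spliced Ensembl transcripts had a count against 81.4% to 84.6% of spliced NONCODE rows, while from 2000 nt up the shares were 75.3% to 82.8% and 89.2% to 92.3%.

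**Figure D1:**
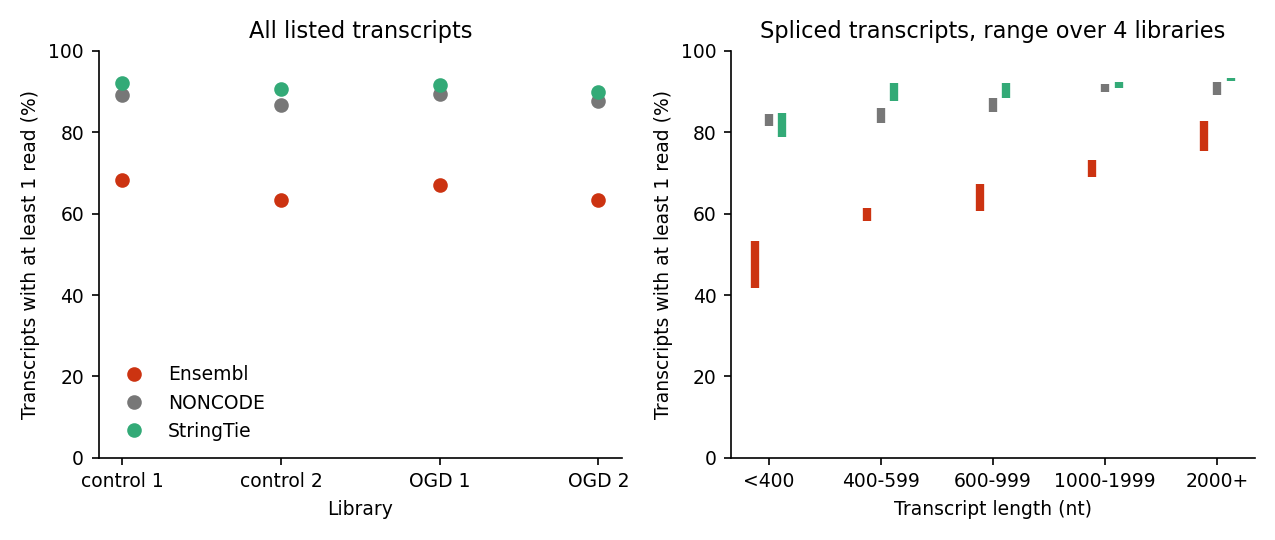
Percent of transcripts with at least 1 count, by library (left, points for the 3 classes) and by length in nt among spliced transcripts (right, bars spanning the lowest to the highest of the 4 libraries). Ensembl transcripts lie between 63.2% and 68.3% in the left panel and below both other classes in each length range on the right.

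Detection was uneven within the set. All 4 libraries had a count for 536 transcripts (45.8%), and 150 (12.8%) had 0 in each. A count of 0 allows up to 3 counts, which is 1.13 to 1.19 CPM (a count scaled to the lncRNA total of its library), or 0.114 to 0.120 FPKM for a transcript of 1 kb, and covers counting error only. With at least 10 counts required, the share was 27.9% and 27.0% in controls and 28.6% and 26.4% after OGD.

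The detected share did not differ between groups beyond the spread between libraries. The mean was 65.8% ± 3.57 in controls and 65.2% ± 2.66 after OGD (SD, n = 2 each; two-sided exact permutation p = 1, where 2 against 2 cannot go below 0.33). The difference of -0.56 points became 1.97 without control 1 and 1.32 without OGD 2. Both libraries numbered 1 had the higher share, whatever their group. A count in both libraries of a group and in neither of the other was found for 18 transcripts in controls (1.54%, against 0.877% of all 20524 rows) and for 24 after OGD (2.05%, against 0.979%). All were at low counts: the highest was 11 and 5 in controls (ENSRNOT00000092494) and 7 and 13 after OGD (ENSRNOT00000076115). The share of these patterns was not tested, and Ensembl transcripts were detected less often than the other classes. These libraries come from bulk RNA, so fewer cells of a type and less RNA per cell cannot be told apart.

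Ensembl transcripts took 2.06% and 2.09% of the lncRNA counts in controls and 2.02% and 2.08% after OGD. The means were 2.08% ± 0.0212 and 2.05% ± 0.0404 (SD, n = 2 each; two-sided exact permutation p = 0.667). The 10 most abundant transcripts held 42.1% to 47.6% of those counts. A mean of at least 1 FPKM was reached by 195 transcripts (16.7%), against 38.8% of NONCODE and 74.6% of StringTie rows. The StringTie share carries the same limit here as for detection. At 10 FPKM the classes were closer, with 33 Ensembl transcripts (2.82%), 5.34% of NONCODE and 2.13% of StringTie rows.

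For several of the leading transcripts, libraries of the same group differed by more than the group means did. AC108574.1 (ENSRNOT00000086178, 3114 nt, chr11:60043639-60051725 in the coordinates of the tables) had the highest mean level, 102 FPKM, and gave 5366, 11085, 5570 and 10428 counts. In FPKM it stood at 69.1 and 135 in controls and at 71.7 and 134 after OGD, so both libraries numbered 2 were above both numbered 1. In AABR07021544.1 (ENSRNOT00000076888) both libraries numbered 1 were the higher, with 3654, 1941, 3442 and 1755 counts. LOC100912578 (ENSRNOT00000079460) had 1106, 2008, 1313 and 2094 counts, and AABR07072236.1 (ENSRNOT00000093470) had 1170, 830, 1239 and 684. AABR07044962.1 (ENSRNOT00000089619) varied least of these, at 1927, 1886, 1971 and 1889 counts, or 37.0 to 40.9 FPKM. The groups overlapped in FPKM for each of these 5 transcripts.

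**Figure D2:**
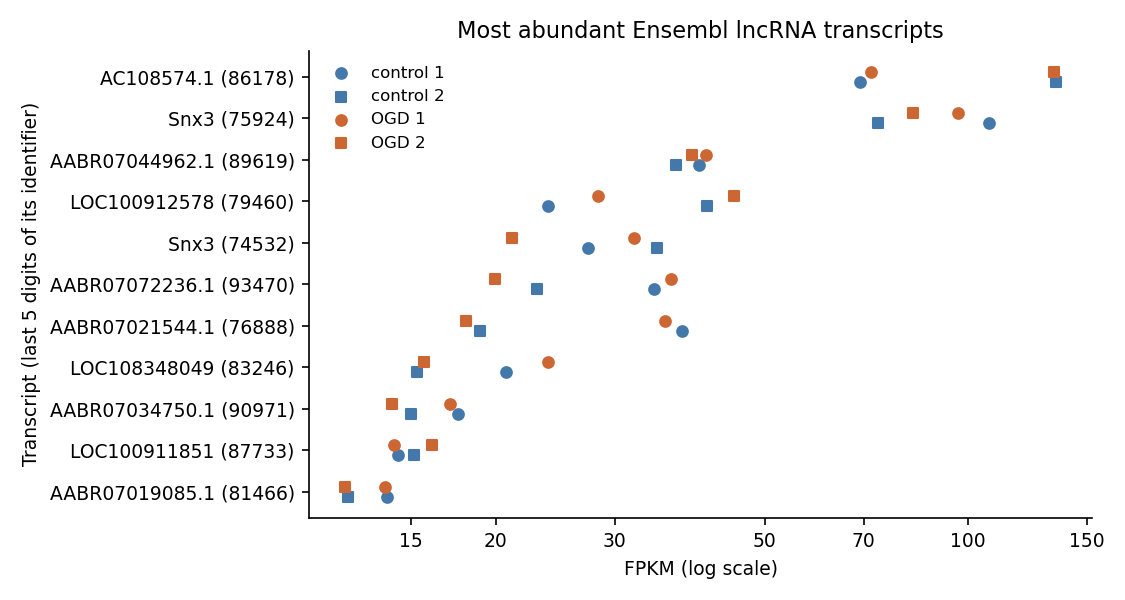
FPKM (log axis) of the most abundant Ensembl transcripts in each library, blue for control and orange for OGD, circles for libraries numbered 1 and squares for those numbered 2. For AC108574.1 the squares sit at 134 and 135 and the circles at 69.1 and 71.7, while colours do not separate.

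Transcripts that carry a gene symbol included some of the most abundant. Snx3, a sorting nexin of endosomes, is a coding gene with transcripts listed here as lncRNA: ENSRNOT00000075924 (932 nt) stood at 107, 73.6, 96.7 and 82.9 FPKM and ENSRNOT00000074532 (1173 nt) at 27.4, 34.6, 32.0 and 21.1 FPKM. Rfwd3, a ubiquitin ligase of DNA repair, had 190, 174, 222 and 134 counts. Cep128, a centriole protein, had 102, 42, 110 and 42 counts, again higher in both libraries numbered 1. Ly6l had 20, 26, 44 and 20 counts. The groups overlapped for each of these 5 transcripts.

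The change after OGD was tested for the 333 Ensembl transcripts (28.5%) that passed a filter on low counts, within a fit over all 10892 rows that passed. The tested transcripts were longer (median 1212 against 683 nt) and more abundant (1.13 against 0.0598 FPKM) than the 837 untested. With edgeR's quasi-likelihood test, 0 of the 333 had a Benjamini-Hochberg adjusted p below 0.05, where the background over all tested rows was 0.00918% (1 row). At an unadjusted p below 0.05 there were 9 (2.70%), against 2.68% of all rows: 6 were higher after OGD (background 1.44%) and 3 lower (background 1.24%). The share over all rows at an unadjusted p below 0.05 is given for this fit only. DESeq2 called 3 of the 333 at an adjusted p below 0.05 (0.901%), against 0.652% of all rows.

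Other shares among the Ensembl transcripts also lay near those over all rows. Groups did not overlap for 88 (26.4%) against 28.4% of all rows, 48 of them higher after OGD (background 14.2%) and 40 lower (background 14.1%). A fitted change of at least 2-fold was found for 21 (6.31%) against 6.12%. The median log2 fold change was 0.0026, against -0.0046 over all rows, with 168 above and 165 below 0. Changes within 0.5 log2 units made up 75.1%, against 77.5% of all rows, and the median standard error (SE) was 0.41 log2 units.

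**Figure D3:**
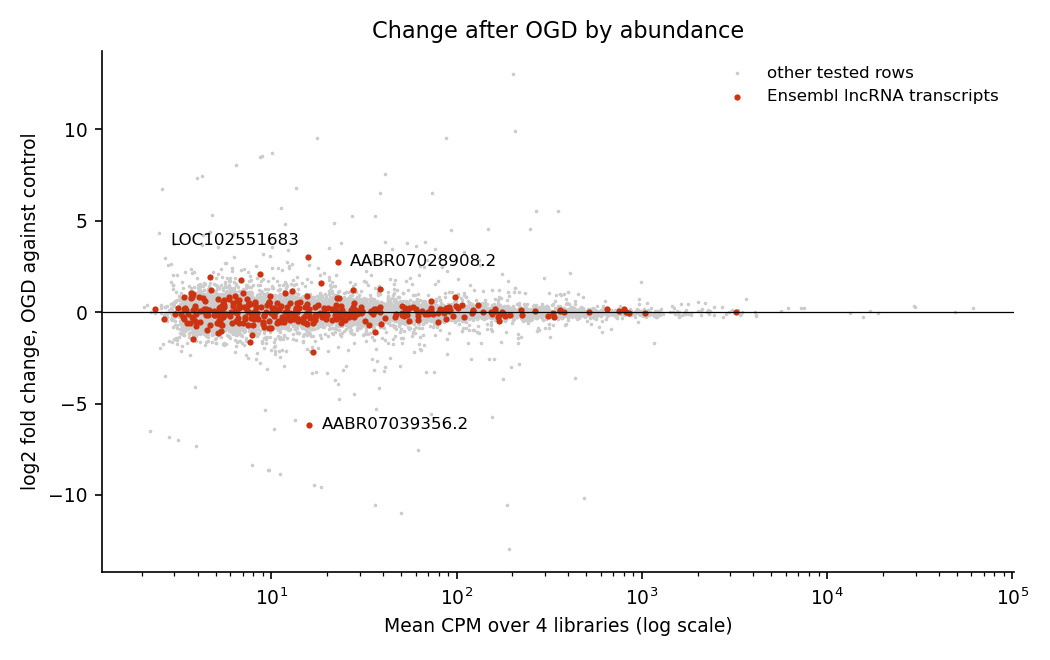
Fitted log2 fold change of OGD against control (vertical axis) by mean CPM (log horizontal axis) for 10892 tested rows, with the 333 Ensembl transcripts in red and the rest in grey. The Ensembl points scatter around 0 (median 0.0026), with AABR07039356.2 at -6.15 and LOC102551683 at 3.00 as their extremes.

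Higher counts after OGD were led by AABR07028908.2 and LOC102551683. Transcript ENSRNOT00000078959 of AABR07028908.2 (6183 nt, chr10:96409-120050) had 19 and 12 counts in controls and 133 and 70 after OGD. The groups did not overlap, and the log2 fold change was 2.75 (SE 0.43; edgeR adjusted p = 0.485, DESeq2 adjusted p = 0.0014). Transcript ENSRNOT00000091253 of LOC102551683 (1505 nt, chr12:21777529-21779204) had 9 and 9 counts in controls and 45 and 93 after OGD. The groups did not overlap, and the log2 fold change was 3.00 (SE 0.54; edgeR adjusted p = 0.648, DESeq2 adjusted p = 0.013).

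When the transcripts of each locus were summed, the difference was much smaller. The second AABR07028908.2 transcript, ENSRNOT00000081689 (6316 nt), had 170, 90, 24 and 89 counts, so the locus summed to 189 and 102 in controls and 157 and 159 after OGD. The log2 fold change of this sum was 0.20 (SE 0.32; edgeR adjusted p = 1.00). The second LOC102551683 transcript, ENSRNOT00000092035 (1384 nt, with the same start and end as its partner), had 54, 88, 31 and 0 counts. That locus summed to 63, 97, 76 and 93, and its log2 fold change was 0.13 (SE 0.36; edgeR adjusted p = 1.00). In both genes the groups overlapped once transcripts were summed.

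In another gene the division of counts between transcripts differed widely between libraries of the same group. AABR07019086.1 has transcripts of 3987 and 4095 nt with the same ends on chromosome 15. ENSRNOT00000088122 had 149, 71, 4 and 119 counts and ENSRNOT00000088613 had 3, 43, 142 and 5, so the shorter held 98.0% and 62.3% of the gene in controls and 2.74% and 96.0% after OGD. The OGD libraries thus stood at opposite ends. Of 31 genes with more than 1 tested transcript, 19 had log2 fold changes of opposite sign and 11 had transcripts more than 1 log2 unit apart. Overlap with another row was found for 381 of the 1170 (32.6%), for 152 of the 333 tested (45.6%) and for 6 of the 9 tested at an unadjusted p below 0.05. Among 181 tested transcripts that overlap no other row, 3 had such a p. The part that read assignment has in these values was not tested.

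**Figure D4:**
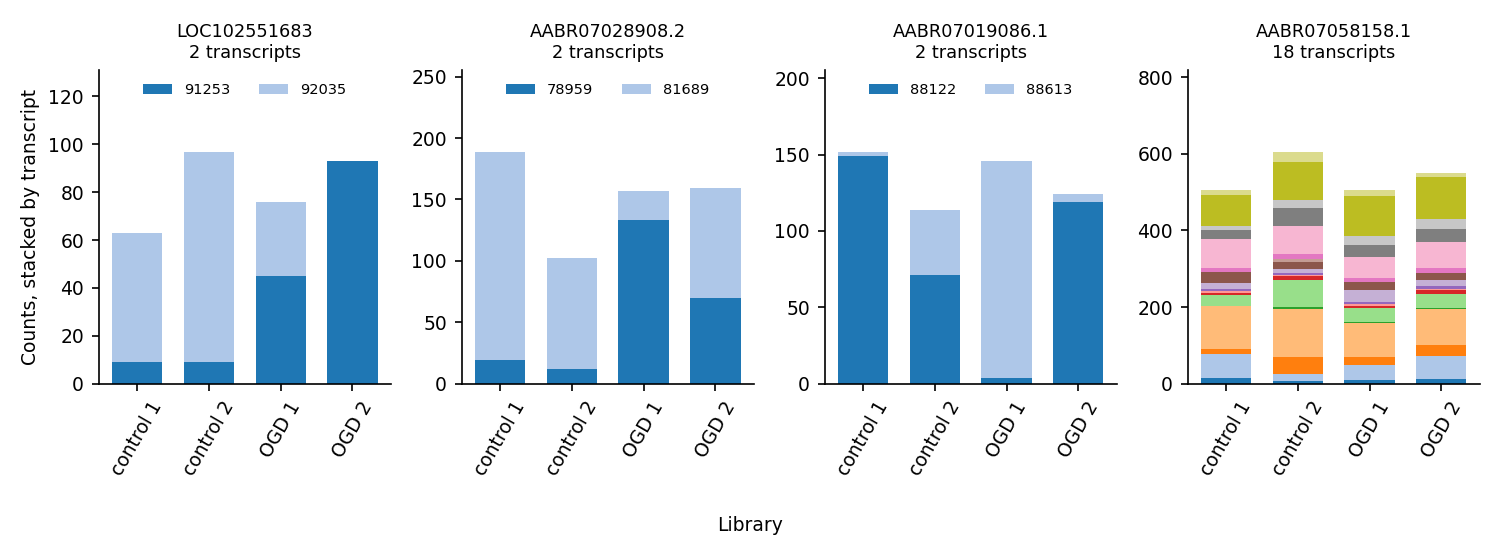
Counts per library stacked by transcript for 4 genes with more than 1 Ensembl transcript, with the last 5 digits of the identifier in the legends. In LOC102551683, AABR07028908.2 and AABR07019086.1 the shares shift between libraries while the bar heights vary less, and the 18 transcripts of AABR07058158.1 keep a total of 505 to 606.

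AABR07058158.1 had the most transcripts of any gene in the set, 18 over 221126 bases (chr7:102648881-102870006), with lengths of 247 to 1034 nt. Summed, they gave 505 and 606 counts in controls and 506 and 551 after OGD. The locus had a log2 fold change of -0.017 (SE 0.23; edgeR adjusted p = 1.00), and its 13 tested transcripts ranged from -0.50 to 0.74. The groups overlapped in the sum.

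The other transcripts named for higher counts each had an edgeR adjusted p of 1.00. AABR07026473.1 (ENSRNOT00000085640, 3461 nt, chromosome 16) had 7, 10, 46 and 26 counts, and its log2 fold change was 2.10 (SE 0.47; edgeR adjusted p = 1.00). It overlaps no other listed row, and its groups did not overlap. AABR07045680.1 (ENSRNOT00000085825) had 23, 19, 48 and 42 counts, and the gene's 3 transcripts summed to 41, 32, 66 and 58, with groups apart in both. AABR07069008.2, AABR07001591.1, AABR07036010.2 and LOC100909599 had log2 fold changes of 0.76, 1.02, 0.77 and 1.78. LOC100909599 (ENSRNOT00000078330) rested mainly on OGD 1, with 8, 8, 44 and 11 counts. Its overlapping transcript ENSRNOT00000086689 had 142, 154, 172 and 153, and the locus summed to 150, 162, 216 and 164, with a log2 fold change of 0.33 (SE 0.22; edgeR adjusted p = 1.00). A StringTie row that also overlaps ENSRNOT00000078330 had 5913, 9128, 5728 and 8010 counts and was not part of that sum.

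Lower counts after OGD were led by AABR07039356.2. Transcript ENSRNOT00000076920 (602 nt, chrX:74333329-74334974) had 111 and 56 counts in controls and 1 and 1 after OGD. In TMM-normalised CPM this was 31.5 ± 12.8 against 0.398 ± 0.0274 (SD, n = 2 each). The groups did not overlap, and the log2 fold change was -6.15 (SE 0.58; edgeR adjusted p = 0.137, DESeq2 adjusted p = 5.5e-05). From the summed counts of 167 and 2, the control level was 80.5 times the OGD level (95% counting interval 21.9 to 670, which leaves out the spread between libraries). The transcript lies within a NONCODE row of 12659 nt that had 41914, 28708, 38256 and 28276 counts, and whose groups overlapped. Summed with its other Ensembl transcript (1 count in each library) the locus had a log2 fold change of -5.24 (SE 0.54, edgeR adjusted p = 0.120). That sum holds Ensembl transcripts only and leaves out the NONCODE row, which had far more counts.

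The other transcripts named for lower counts had log2 fold changes between -1 and 0, and none passed the test. AC141377.2 (845 nt) and AC141377.3 (594 nt) lie end to end on the X chromosome at chrX:70421599-70422443 and chrX:70422452-70423045, both unspliced. They had 34, 33, 18 and 17 counts and 25, 35, 17 and 16 counts, with log2 fold changes of -0.88 (SE 0.31) and -0.82 (SE 0.39) and an edgeR adjusted p of 1.00 each. The groups did not overlap for either. AC141377.3 overlaps a NONCODE row of 805 nt that had 16, 29, 11 and 19 counts, whose groups overlapped. AC120486.11 (638 nt, chromosome 20) had 32, 33, 14 and 20 counts, and AABR07035722.1 (2450 nt, chromosome 12) had 254, 237, 154 and 167, with groups apart in both. AC120486.11 lies within a NONCODE row of 773 nt that went the other way, with 7, 6, 8 and 11 counts. AC129370.1 lies within a NONCODE row named for Wdr12, a ribosome biogenesis gene, and had 37, 30, 22 and 21 counts. AABR07071228.1 had 88, 106, 69 and 65 counts. LOC100911851 transcript ENSRNOT00000085965 had 511, 513, 432 and 290 counts, and its gene summed to 1453, 1543, 1326 and 1328, with a log2 fold change for the sum of -0.12 (SE 0.18) against -0.46 (SE 0.23) for the transcript.

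**Figure D5:**
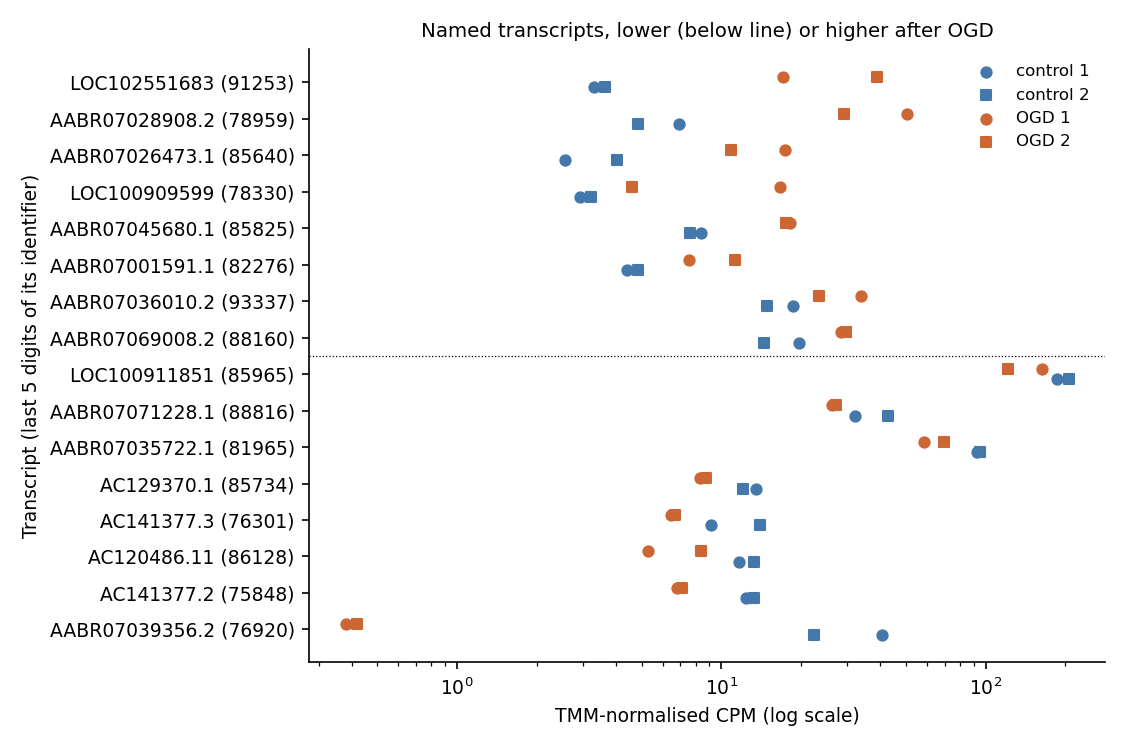
TMM-normalised CPM (log axis) in each library for 16 tested transcripts, 8 higher (above the dotted line) and 8 lower after OGD, which had the smallest p in their direction among those whose groups did not overlap and whose mean reached 20 counts in 1 group. Colours are blue for control and orange for OGD, circles for libraries numbered 1 and squares for those numbered 2. AABR07039356.2 stands apart at about 0.398 CPM after OGD against 31.5 in controls.

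No name in the set appeared in 10 lists written for astrocytes and OGD: 43 classical lncRNAs, 20 microRNA host genes, 22 targets of hypoxia-inducible factors, 21 stress genes and 6 lists of cell type markers. The marker lists were therefore read in the other rows, where rows at marker genes may hold noncoding or antisense transcripts rather than the coding RNA. Of 10 astrocyte markers, 5 had a row, and the rows summed to 53.7, 32.7, 64.6 and 32.2 CPM. Aqp4, S100b, Aldh1l1, Gja1 and Sox9 had none, so the labelled cell type could not be checked on them. Rows at 3 of 8 endothelial and mural markers (Pecam1, Tek and Abcc9) summed to 4.60 and 7.98 CPM in controls and to 32.5 and 24.3 after OGD, with groups apart. Only the sum is given, so a single row could hold most of that difference. Cldn5, Kdr, Kcnj8, Rgs5 and Cdh5 had no row. Rows at 3 of 7 fibroblast markers summed to 717, 1656, 1097 and 1515 CPM and at 3 of 8 oligodendrocyte markers to 8.44, 16.3, 7.94 and 9.55, with groups overlapping in both. Rows at 3 of 10 neuron markers summed to 86.7 and 105 CPM in controls and 108 and 107 after OGD. The groups were apart there by less than the controls differed from each other. Rows at 3 of 10 microglia markers summed to 29.9, 41.4, 11.0 and 34.2 CPM, with groups overlapping. Groups were apart for 28.4% of all tested rows, and no marker sum was tested. The part of other cells in the values of the Ensembl transcripts was not tested. The listed lncRNA rows held 2513804 to 2646300 counts per library, 9.98% to 10.6% of the library totals implied by FPKM. Of these counts the Ensembl transcripts had 52208 to 55074, with a median of 2 to 3 counts per transcript.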

How the data were processed

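The authors deposited, for 4 libraries, tables of read counts and of FPKM per lncRNA transcript with its coordinates. Per the submitters' processing notes HISAT2 and StringTie were used. The notes name the mouse build mm9, but the deposited tables hold 20 autosomes and rat Ensembl identifiers, so coordinates are given as in the tables with no build. The sources used here give neither the counter nor its strand setting, so overlapping transcripts and antisense reads cannot be told apart. The deposited counts were tested with edgeR 4.0.16 (R 4.3.3; filterByExpr, TMM, quasi-likelihood, OGD against control), with p-values adjusted over all 10892 tested rows. The deposited FPKM values were used for levels between transcripts, untested and with no pseudocount. Named transcripts were the 8 of smallest p in each direction (groups apart, group mean reaching 20 counts), the 10 of highest CPM, the 5 of highest FPKM, those with gene symbols, and the 3 longest and 3 shortest. Others that the text names were chosen after their values were seen. The members and lists were chosen with earlier results of these data known. Alternatives were DESeq2 1.42.0, other scalings and filters, a replicate block, summing by locus, members free of overlap, and leaving out each library. With 2 libraries per group and a median of 2 to 3 counts per transcript, precision is low for most members. Sequences are from RefSeq (GRCr8); Python 3.11.15 made the summaries.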

Additional observations from a re-analysis of the deposited data

How the results depend on the processing

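The count of 0 Ensembl transcripts past an edgeR adjusted p of 0.05 was also 0 under other size factors, totals implied by FPKM, other filters, summing by locus, a threshold of 0.10, members free of overlap and leaving out each library, and it was 3 with DESeq2 (AABR07039356.2, AABR07028908.2 and LOC102551683, with log2 fold changes of -6.31, 2.75 and 3.01). The 9 transcripts at an unadjusted p below 0.05 became 5 with DESeq2, 32 of 1020 with no filter on low counts, 3 of 181 among members that overlap no other row, and 8 to 15 when each library was left out. The median log2 fold change ranged from -0.00040 to 0.039 when each library was left out, the highest without control 2. The difference in the detected share, -0.56 percentage points, was 0.043 with at least 10 counts required and ranged from -3.08 to 1.97 when each library was left out. For each of these shifts the cause was not tested. Of the alternative values for the 16 transcripts named for their p, 173 kept direction and side of the threshold, 3 gained the threshold (with DESeq2) and 0 reversed. Those 16 were chosen in these data for small p and groups that do not overlap, so this tally was largely fixed in advance. The 173 include log2 fold changes of locus sums: AABR07028908.2 went from 2.75 to 0.20, LOC102551683 from 3.00 to 0.13 and LOC100909599 from 1.78 to 0.33.

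The replicate number was not used as a pairing, since the labels tie it to no shared culture and there are 2 pairs. Same-numbered libraries deviated together (r = 0.31 over tested Ensembl transcripts and 0.193 over all tested rows, across transcripts, which are not independent). With the number as a replicate block, 0 Ensembl transcripts passed and 11 had an unadjusted p below 0.05. The share over all rows in that fit is not given here. Low counts limit what can be said: most Ensembl transcripts had too few to be tested.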
